A study of Mus musculus with 2 samples.

Results

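Desmosomes are the spot-like junctions that rivet epithelial cells to each other, and the genes of their core proteins are described here in mouse prostaspheres with and without the transcription factor Sox9. The group was defined by name, not by measured values: every non-control probe of a 2-colour Agilent array that carries the name of a listed desmosomal cadherin, plakophilin, plakoglobin or desmoplakin. It holds 10 of the 27827 gene names on the array, read by 20 probes. 8 of the 10 genes, with 16 probes, were bright enough to test. Dsc1 and Dsc3 were not well above background in any RNA.

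Prostaspheres are balls of epithelial cells grown from single cells in Matrigel, a basement membrane gel. The labels describe epithelium of the urogenital sinus, the embryonic tissue that forms the prostate, taken at 16 days post conception on a C57/Bl6J background. The methods of the study describe adult prostate for its sphere assay, so labels and methods differ on the tissue. After 6 days in Matrigel with dihydrotestosterone, all spheres had 6 more days of tamoxifen (TAM, 5 µM) or vehicle. Floxed spheres carry ERCre+/+Sox9flox/flox: Sox9 can be cut out by a Cre recombinase fused to an oestrogen receptor, which works once TAM is added. The methods of the study name Rosa26ERCre mice, and the Rosa26 locus is known to be active in most cell types.

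The genotype comparison set wild-type spheres given TAM (Cy5, red) against floxed spheres given TAM (Cy3, green). The treatment comparison set floxed spheres given vehicle (Cy5) against floxed spheres given TAM (Cy3). Each was 1 array, so 4 RNAs were measured, and a positive log2 ratio means more RNA in the Sox9-expressing spheres. Wild-type spheres with TAM and floxed spheres with vehicle are called Sox9-expressing, and floxed spheres with TAM Sox9-deleted. The genotype label reads Sox9 null for both RNAs of the treatment comparison, vehicle included, and the source names call each red RNA SOX9 and each green RNA Ctrl, so the titles and treatments were followed. Nothing says whether the 4 RNAs came from separate animals or cultures. The only spread measured for a probe is that between 2 arrays that answer different questions. For its p-values and intervals, limma draws this spread toward that of all tested probes.

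In a desmosome, 2 kinds of cadherin, the desmogleins (Dsg) and desmocollins (Dsc), cross the membrane and hold the neighbouring cell. Inside, their tails bind plakoglobin (Jup) and the plakophilins (Pkp), and desmoplakin (Dsp) ties this plaque to the keratin filaments. The complex is known for giving epithelia their resistance to stretching, and basal and luminal cells of the prostate both form it. Sets of isoforms differ between layers of stratified epithelia, where Pkp1, Dsg3 and Dsc3 are typical of basal and stratified cells, and Dsg2, Dsc2 and Pkp2 are found in simple epithelia and in heart as well.

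Desmoplakin has 4 probes, and the pair below is printed because both read the same transcript yet gave different ratios. The first starts at transcript base 5665 and crosses an exon junction (mm9, chr13:38285480-38286579). The second starts at base 6803 (mm9, chr13:38287658-38287717). Letters are those of the array design, 5′ to 3′, with no base marked.
Dsp probe at base 5665: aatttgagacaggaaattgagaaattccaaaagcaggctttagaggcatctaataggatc
Dsp probe at base 6803: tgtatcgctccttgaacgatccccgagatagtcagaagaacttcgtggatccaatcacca
None of the 20 member probes shared a run of 20 bases with a probe of another name on the array.

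Promoters were at hand for Dsp (mean log2 ratio 0.80) and Jup (0.14), neither of which passed an adjusted p of 0.05 in limma. The 250 bases before each start are shown for that contrast in ratio (RefSeq, GRCm38.p6). Of the 10 genes, 2 were matched in that table. The Dsp stretch is chr13:38151044-38151293 on the plus strand and the Jup stretch chr11:100397791-100398040 on the minus strand, both written in the direction of the gene. Capitals mark GGGCGG, the GC box, on either strand.
Dsp promoter: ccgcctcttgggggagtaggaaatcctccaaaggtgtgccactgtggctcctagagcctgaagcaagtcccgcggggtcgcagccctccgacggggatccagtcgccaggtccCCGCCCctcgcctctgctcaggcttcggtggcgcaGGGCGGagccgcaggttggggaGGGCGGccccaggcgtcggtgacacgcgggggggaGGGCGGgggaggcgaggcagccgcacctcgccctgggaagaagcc
Jup promoter: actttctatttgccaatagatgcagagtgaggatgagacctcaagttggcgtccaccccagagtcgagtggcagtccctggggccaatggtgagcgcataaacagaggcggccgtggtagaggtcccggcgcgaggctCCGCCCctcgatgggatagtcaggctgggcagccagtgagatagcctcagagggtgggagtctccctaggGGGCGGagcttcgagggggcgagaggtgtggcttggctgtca
Dsp held 4 GC boxes and Jup 2, a motif present in 32.7% of 32851 promoter stretches of that length. GC content was 72.4% for Dsp and 62.0% for Jup, against a median of 52.4%. Neither stretch held ACAAAG or AACAAT, letters typical of SOX binding sites that occur in 16.5% and 9.42% of all stretches, or TATAAA, which occurs in 12.4%. These searches covered both strands. No binding was measured in these data, and the letters say nothing about it.

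The Sox9 label could be checked in part. Among 3 Sox9 probes, the log2 ratio was 2.69 and 2.37 for one and 1.18 and 1.27 for another in the genotype and treatment comparisons, while the third ran the other way, at -0.997 and -1.22. The part of the gene that Cre removes was not placed against these probes. Defining keratins of prostate epithelium (Krt5, Krt14, Krt8 and Krt18) were well above background in all 4 RNAs.

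Across the desmosome, Pkp1 and Dsp stood out, both brighter in Sox9-expressing spheres on each array, and the rest had smaller ratios. On the brightest probe of each gene, the mean log2 ratio of both arrays was 1.41 ± 0.19 (SD, n = 2 arrays) for Pkp1 and 0.80 ± 0.20 for Dsp, and lay between -0.07 and 0.29 for the other 6 genes. None of the 8 genes passed an adjusted p of 0.05 in limma, a rule that called 0.0088% of all 22731 tested probes. At an unadjusted p under 0.05, 3 genes were higher with Sox9 (Pkp1, Dsp and Pkp3) where 9.5% of all probes were, and 0 were lower where 8.05% were. In direction, 5 genes were higher on both arrays (Pkp1, Dsp, Pkp3, Dsg3 and Jup; 34.6% of all probes), 1 was lower on both, though at 0 to 2 decimals on the genotype array (Dsg2; 32.6%) and 2 had opposite signs (Pkp2 and Dsc2). The median log2 ratio of the 8 genes was 0.14 and 0.24 in the genotype and treatment comparisons, beside 0.00 and 0.01 for all tested probes. All red RNAs were Sox9-expressing with no dye-swap, so dye and Sox9 status cannot be told apart.

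**Figure D1:**
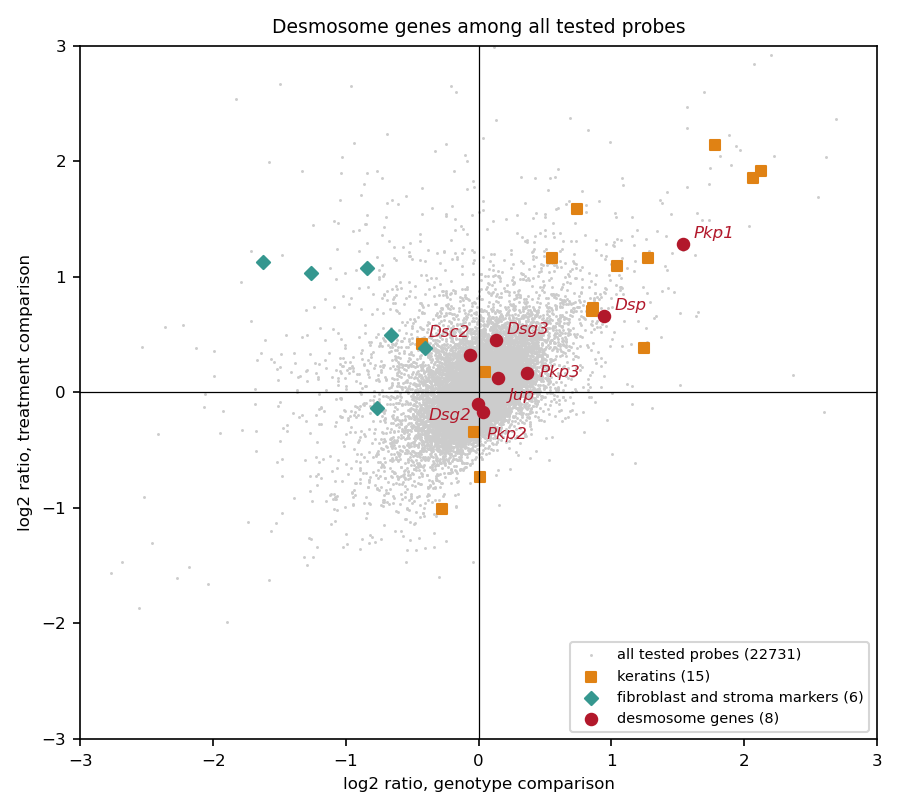
Log2 ratio in the genotype comparison (horizontal) against the treatment comparison (vertical), with 1 point per probe: all 22731 tested probes in grey (11 lie outside the axes), the brightest probe of the 8 tested desmosome genes in red, 15 keratins in orange and 6 fibroblast and stroma markers in teal. Pkp1 and Dsp lie at the upper right with several keratins, and the other desmosome genes near the origin.

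Pkp1, plakophilin 1, which reinforces the plaque and draws desmoplakin into clusters, was the member with the largest ratio. Its normalised brightness, in scanner units, was 15142 in wild-type and 5200 in Sox9-deleted spheres of the genotype array, and 12524 in vehicle-treated and 5158 in Sox9-deleted spheres of the treatment array. Both Sox9-expressing RNAs were thus far above both Sox9-deleted RNAs, which differed from each other by -0.01 on the log2 scale. The log2 ratio was 1.54 (2.91-fold) by genotype and 1.28 (2.43-fold) by treatment. Its mean of 1.41 (95% interval 1.13 to 1.69) had an unadjusted p of 0.000192 and an adjusted p of 0.0833 in limma, and was above that of 99.8% of tested probes. Pkp1 was also the 1 member past 2-fold on each array, a size that 0.471% of tested probes reached upward by genotype and 1.35% by treatment. Its single probe lies on chromosome 1 (mm9, 137768027 to 137768086).

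Dsp, desmoplakin, the link from plaque to keratin, gave nearly the same answer on 3 of its 4 probes. The brightest probe read 6120 in wild-type and 3182 in Sox9-deleted spheres, then 4283 in vehicle-treated and 2707 in Sox9-deleted spheres. Both Sox9-expressing RNAs were brighter than both Sox9-deleted RNAs, as for 26.9% of all tested probes. Vehicle-treated spheres were below wild-type spheres by 0.51 on the log2 scale. Its log2 ratio was 0.94 (1.92-fold) by genotype and 0.66 (1.58-fold) by treatment, with a mean of 0.80 (95% interval 0.51 to 1.09), an unadjusted p of 0.00175 and an adjusted p of 0.114 in limma. The probe at base 8879 gave 0.86 and 0.62, and the printed probe at base 6803 gave 0.95 and 0.71.

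The fourth Dsp probe, the printed one at base 5665, gave 0.12 by genotype and 0.22 by treatment. It was dim, with normalised brightness of 139 and 127 on the genotype array and 133 and 114 on the treatment array, near the 87.5 to 94.0 read by the probes of the 2 genes not above background. In the scanner software's own values, which have no offset added to the signal, the same probe gave 0.80 and 0.66, beside 1.02 and 0.67 for the brightest Dsp probe. In the authors' processed values the gap remained, at 0.31 and 0.29 beside 0.97 and 0.71.

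Pkp3, plakophilin 3, which is found in the desmosomes of nearly all epithelia, was slightly brighter with Sox9. It read 10489 in wild-type and 8137 in Sox9-deleted spheres by genotype, and 8861 in vehicle-treated and 7909 in Sox9-deleted spheres by treatment. The groups did not overlap, as for 26.9% of all tested probes. The log2 ratios were only 0.37 and 0.16 (mean 0.27 ± 0.14, SD, n = 2 arrays, limma unadjusted p = 0.0436, adjusted p = 0.272). Pkp2, plakophilin 2, the form of heart and simple epithelia, read 917 and 897 by genotype and 794 and 896 by treatment. Vehicle-treated spheres were the low sample, and the log2 ratio was 0.03 and -0.17 (95% interval of the mean -0.33 to 0.18, limma adjusted p = 0.710). The Pkp2 and Pkp3 probes lie on chromosomes 16 and 7.

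Jup, plakoglobin, an armadillo protein that bridges cadherin tails and desmoplakin and also serves adherens junctions, differed little. It read 840 in wild-type and 758 in Sox9-deleted spheres, and 818 in vehicle-treated and 749 in Sox9-deleted spheres. The Sox9-expressing pair was the brighter one, by a log2 ratio of 0.15 and 0.13. The mean of 0.14 had a 95% interval of -0.07 to 0.34 and an adjusted p of 0.406 in limma. Such separation of the 4 RNAs, seen in 5 of the 8 genes (Pkp1, Dsp, Pkp3, Dsg3 and Jup), was found in 26.9% of all tested probes.

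**Figure D2:**
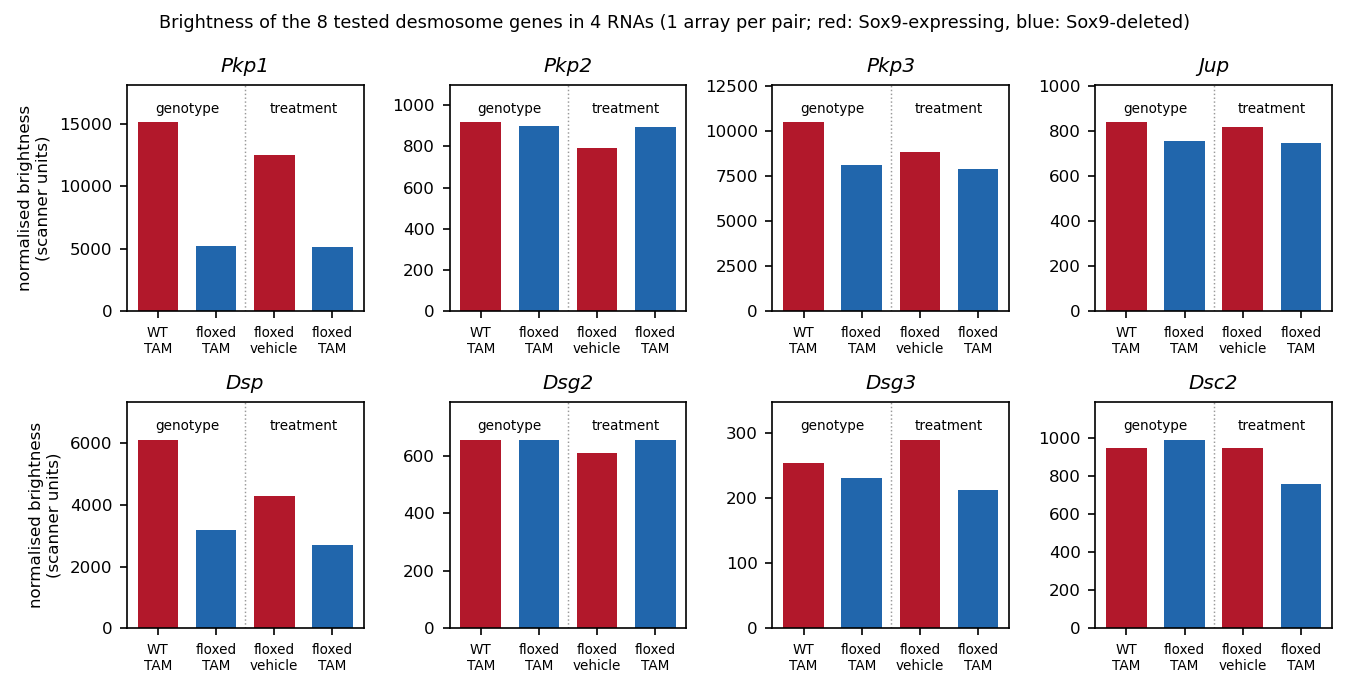
Normalised brightness (scanner units, linear axis from 0, own scale per gene) of the brightest probe of each of the 8 tested desmosome genes in the 4 RNAs, 1 bar per RNA with no replicate and so no error bar, red for Sox9-expressing and blue for Sox9-deleted. Pkp1 reads 15142 and 12524 in the red bars and 5200 and 5158 in the blue ones, while Pkp2, Jup and Dsg2 have nearly level bars.

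The cadherins lie together on chromosome 18. Dsg3, the desmoglein of basal keratinocytes, was read by 1 tested probe at 254 in wild-type and 232 in Sox9-deleted spheres by genotype, and at 290 in vehicle-treated and 212 in Sox9-deleted spheres by treatment. Vehicle-treated spheres were the brightest and the groups did not overlap, as for 26.9% of all tested probes. The log2 ratios of 0.13 and 0.45 (mean 0.29 ± 0.22, SD, n = 2 arrays) had an adjusted p of 0.298 in limma. Its other probe, against a different transcript, was not well above background in any RNA.

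Dsg2, the desmoglein that nearly all desmosome-bearing tissues express, was level. Its brightest probe read 657 and 658 by genotype and 611 and 655 by treatment, and vehicle-treated spheres alone were a little lower. The log2 ratio was -0.0012 by genotype and -0.10 by treatment, and the 95% interval of the mean, -0.27 to 0.17, ended well short of the Pkp1 and Dsp means. The other 3 tested Dsg2 probes gave means from -0.03 to 0.12, with opposite signs on the 2 arrays for those at bases 3878 and 487. The remaining probe was not above background.

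Dsc2, the desmocollin found in most desmosomes, gave opposite signs on the 2 arrays at all 3 of its probes. The brightest read 946 in wild-type and 990 in Sox9-deleted spheres by genotype, and 944 in vehicle-treated and 756 in Sox9-deleted spheres by treatment. The Sox9-expressing RNAs were level with each other, and the Sox9-deleted RNAs, which share genotype, treatment and dye, differed by -0.39 on the log2 scale, more than the ratio of 0.32 by treatment or -0.06 by genotype. Without scaling between arrays that difference was -0.45.

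The Dsc2 probe nearest the 3′ end, at base 3318, had the widest gap between arrays. It read 149 in wild-type spheres, against 246 in both Sox9-deleted RNAs and 324 in vehicle-treated spheres, giving log2 ratios of -0.73 and 0.40. Wild-type spheres were the low sample and vehicle-treated spheres the high one. In the scanner's raw red signal, before any normalization, the spot read 126 in wild-type and 375 in vehicle-treated spheres. The probe at base 2995 gave -0.15 and 0.12. Intervals of the mean for all 3 probes included 0.

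**Figure D3:**
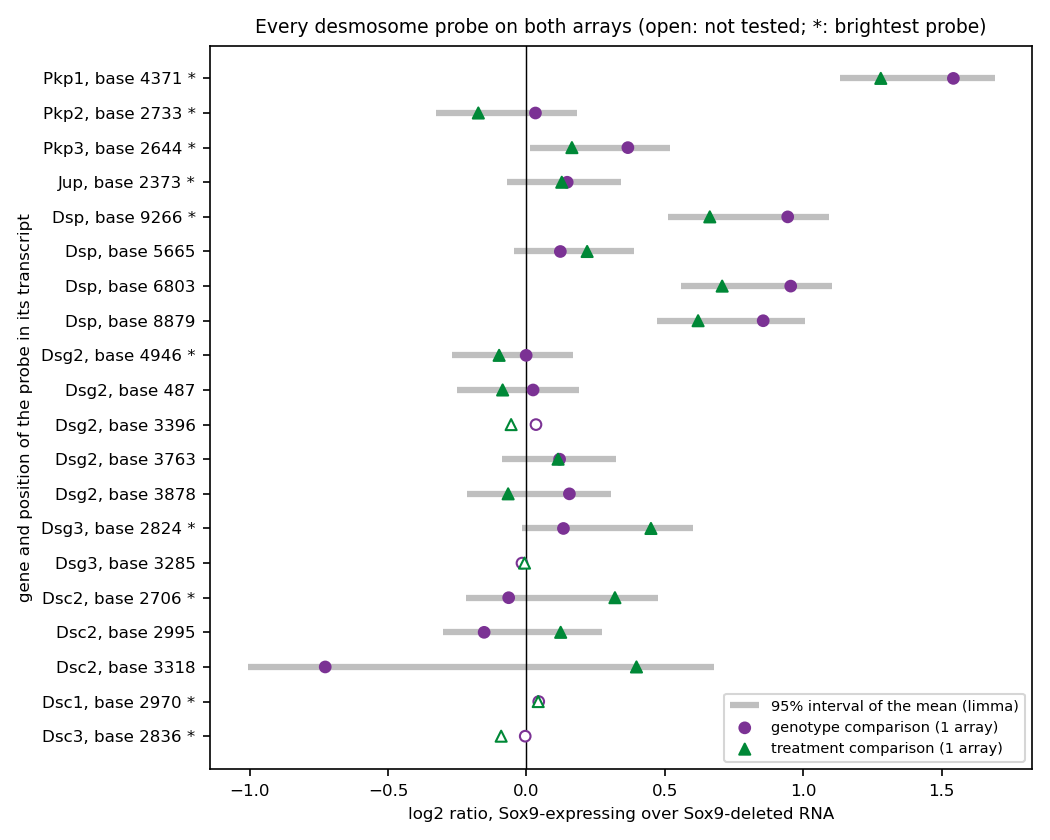
Log2 ratio of all 20 desmosome probes, named by gene and by the transcript base where the probe starts, in the genotype comparison (purple circles) and the treatment comparison (green triangles), 1 array each; grey bars are limma's 95% interval of the mean and open symbols were not tested. Pkp1 and 3 Dsp probes lie to the right of 0 with their intervals, and the 3 Dsc2 probes have circles left and triangles right of 0.

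Dsc1 and Dsc3, the desmocollins of upper and basal layers of stratified epithelia, have 1 probe each. Normalised brightness lay between 89.0 and 94.0 for Dsc1 and between 87.5 and 93.2 for Dsc3 over the 4 RNAs. Neither was well above background, so no ratio is given for them, and a level below what these probes can read is not shown to be absent.

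Other genes of the desmosome and its envelope were listed from general knowledge with earlier results of these data known. All 13 were on the array and 7 were tested. Of these, 4 were higher with Sox9 on both arrays (34.6% of all tested probes) and 0 lower on both (32.6%). The median log2 ratio was 0.17 and 0.10. Perp, a membrane protein that desmosome assembly in stratified epithelium needs, was higher by 0.66 and 0.40 (limma unadjusted p = 0.00690, adjusted p = 0.160). Pkp4, a relative of the plakophilins that also sits at adherens junctions, gave 0.19 and 0.37 (adjusted p = 0.246). Pnn, pinin, gave 0.28 and 0.12, and Evpl, envoplakin, a plakin of the cornified envelope, -0.42 and 0.02. Dsg1a, Dsg1b, Dsg1c, Cdsn and Pof1b, genes of differentiated epidermis and other stratified epithelia, were not well above background in any RNA, and Dsg4 was above it in 2 of the 4 RNAs.

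Keratins, the filaments that desmoplakin holds, gave larger ratios. Of 15 keratin genes, 11 were higher on both arrays (34.6% of all tested probes) and 2 lower on both (32.6%), with medians of 0.86 and 0.73. 10 had an unadjusted p under 0.05 upward, where 9.5% of all probes did, and 1 downward, where 8.05% did, and none passed after adjustment. One of the 10, Krt1, was well above background in neither Sox9-deleted RNA and so entered the test through the RNAs where it is high, which leaves 9. Krt1 is also among the 11 higher on both arrays and in the medians. Past 2-fold on both arrays were Krt5 (2.13 and 1.91) and Krt14 (2.07 and 1.86), the keratin pair of basal cells, Krt10 (1.78 and 2.14), a keratin of suprabasal skin, Krt6b (1.28 and 1.16) and Krt15. The keratin with an unadjusted p under 0.05 downward was Krt18, a luminal keratin named after its value was seen, at -0.28 and -1.01.

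Basal cell markers were also brighter with Sox9, though none passed after adjustment. Each of the 5 listed (Krt5, Krt14, Trp63, Itga6 and Itgb4) had a positive ratio in both comparisons, as did 34.6% of all tested probes. Their summed brightness was 266226 in wild-type and 218574 in vehicle-treated spheres against 68966 and 68833 in the Sox9-deleted RNAs, most of it from Krt5 and Krt14. Trp63, the basal transcription factor p63, gave 1.65 and 1.55, whereas Itgb4, an integrin of hemidesmosomes, gave 1.15 by genotype and only 0.06 by treatment. In RNA of whole spheres, fewer cells of a type and less RNA per cell cannot be told apart. The 4 tested luminal markers had medians of -0.13 and -0.47. On both arrays alike, 1 was positive and 2 were negative (32.6% of all tested probes). The 8 tested suprabasal and squamous markers were mixed: 4 were positive on both arrays, 3 negative on both and 1 had opposite signs. One of the 4, Krt1, entered the test through the RNAs where it is high, so its sign carries no weight. The part of basal cell content in the Pkp1 and Dsp ratios was not tested.

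Most markers of fibroblasts and muscle had opposite signs on the 2 arrays, as Dsc2 did: 5 of 6 for fibroblasts and stroma, 3 of 4 for smooth muscle and 4 of 5 for skeletal and heart muscle. Among the last, Myh3 and Myog were not well above background in wild-type spheres (92 and 109), so their negative sign by genotype carries no weight. Both are also in the medians below. Of all tested probes, 34.6% were higher on both arrays, 32.6% were lower on both, and the remainder had opposite signs. The 6 fibroblast and stroma markers had a median log2 ratio of -0.80 by genotype and 0.76 by treatment, and their summed brightness ran from 29679 in wild-type to 75746 in vehicle-treated spheres, with 53023 and 46060 in the Sox9-deleted RNAs. For 4 smooth muscle markers the medians were -0.26 and 0.64, and for 5 skeletal and heart muscle markers -0.17 and 1.06. 2 tested blood markers were lower on both arrays (medians -0.79 by genotype and -0.46 by treatment), and Ptprc, which marks all leukocytes, was not above background. Whether these cells contribute to the Dsc2 values was not tested.

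Adherens junctions, the other cadherin junction of epithelia, were mixed. Of 5 genes, 2 were higher on both arrays (34.6% of all tested probes) and 2 lower on both (32.6%). Cdh3, P-cadherin, a basal cadherin, was higher by 0.63 and 0.46 (limma unadjusted p = 0.00374, adjusted p = 0.138), and Cdh1, E-cadherin, ran the other way at -0.31 and -0.32 (adjusted p = 0.188). Ctnnd1, p120 catenin, gave 0.25 and 0.09, and Ctnnb1, beta-catenin, a relative of plakoglobin, -0.12 and -0.14.

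Next came 10 proteases, kinases and other enzymes known to act on desmosomes or their cadherins. Of these, 5 were higher on both arrays (34.6% of all tested probes) and 1 lower on both (32.6%). Mmp9, a secreted gelatinase, was the lower one, at -0.86 and -0.56 (limma unadjusted p = 0.00300, adjusted p = 0.131). Adam10 and Adam15, membrane proteases that shed cadherin ectodomains, gave 0.34 and 0.53, and 0.30 and 0.25 (adjusted p = 0.172 and 0.213). Prmt1, an arginine methyltransferase, gave 0.58 and -0.21.

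Processing turned the sign of 3 small mean ratios (Dsg2, Pkp2 and Dsc2) and of no other. The mean log2 ratio of Pkp1 stayed between 1.35 and 1.84 and that of Dsp between 0.64 and 1.17 over 11 settings. Changing the filter, keeping outlier spots and the methods' t-test could not move these means, so only the other settings bear on the ranges. Centring each array on its median instead of fitting the dye trend raised the median of all tested probes to 0.38 in the treatment comparison. There, Pkp1 (1.84, limma adjusted p = 7.88e-09) and Dsp (1.17, adjusted p = 0.00190) passed the threshold, and the negative means of Dsg2 and Pkp2 turned positive. In the authors' processed values Pkp1 passed alone, at an adjusted p of 0.0473. The methods' t-test at an unadjusted p under 0.05 passed 1 of the 8 genes, Jup, and 8.49% of all tested probes, and passed neither Pkp1 nor Dsp.

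**Figure D4:**
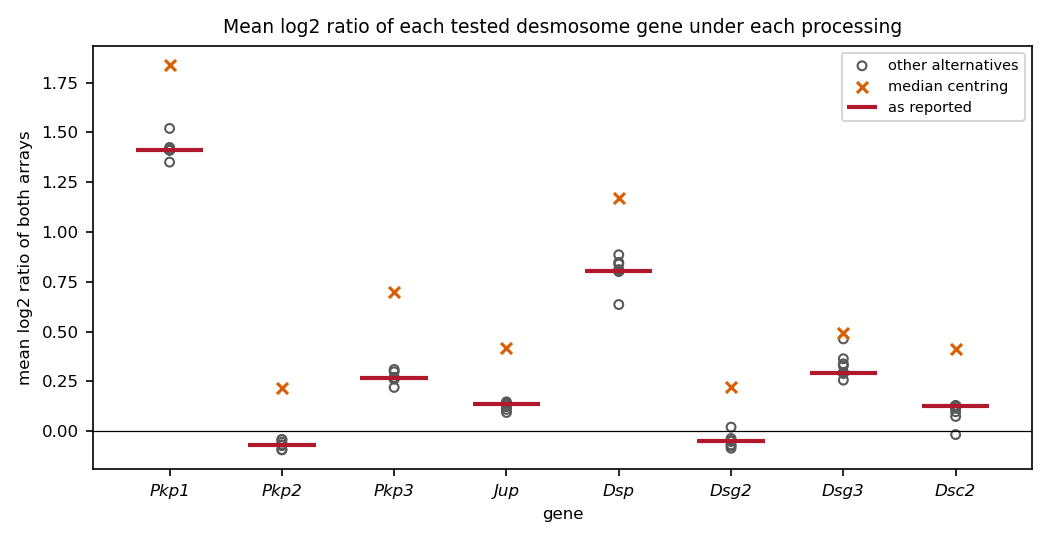
Mean log2 ratio of both arrays for each of the 8 tested desmosome genes, as reported (red line), with median centring (orange cross) and under the other alternatives (grey circles). Pkp1 and Dsp stay above 0.6 throughout, and Pkp2, Dsg2 and Dsc2 have values on both sides of 0.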

How the data were processed

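Total RNA of 4 sphere samples was amplified, labelled and hybridised to 2 arrays on 1 slide. The deposited scanner intensities were read with Feature Extraction 10.5.1.1 per the file headers, which name build mm9. The scanner software also deposited log10 red over green ratios, and the authors deposited log2 values of both arrays, for which the labels name limma. These log2 values had a slope of 3.12 and 3.14 on the log10 ratio, with medians of -0.01 and -0.000536 over tested probes. Their background step and exact centring are not given in the sources used here.

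Mean signals of 45018 spots were corrected by normexp (offset 50), loess-normalised within each array in limma 3.58.1 (R 4.3.3), with 1639 control spots and outlier spots (126 and 130) left out, and averaged over spots of a probe. No member spot was an outlier or saturated. Tested probes (22731 of 41174) had to clear background on each array in a shared dye. The share of probes well above background was 53.9% to 56.2% per RNA. The mean of both arrays was tested against 0 (2-sided) with Benjamini-Hochberg adjustment over all tested probes. In this test limma drew the variance of each probe toward that of all tested probes (prior SD 0.119, prior degrees of freedom 2.80). Brightness per RNA used Aquantile scaling between arrays and includes the offset, which shrinks ratios of dim probes. Each gene was read from its brightest probe. All 10 members are named with every probe, and at most 4 genes of each further list, those past 2-fold in 1 direction first. Members and lists were chosen with earlier results of these data known. Depth has no counterpart here: 2 arrays limit the precision. Alternatives covered background, normalization, filter, probe choice, scaling, outliers and leaving out each array. The methods' t-test was also run. The fit was tested on simulated data. Promoters were searched in Python 3.11.15.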

Additional observations from a re-analysis of the deposited data

Results flagged for a closer look

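For 6 probes of 3 genes the ratio had opposite signs in the genotype and treatment comparisons. With 1 array each, the difference was not tested. The log2 ratio by treatment minus that by genotype was 1.12 for the Dsc2 probe at base 3318, 0.38 for the brightest Dsc2 probe and 0.28 for the Dsc2 probe at base 2995. It was -0.22 and -0.11 for the Dsg2 probes at bases 3878 and 487, and -0.21 for Pkp2. All 3 Dsc2 probes had the higher ratio by treatment, but the shift lay in different RNAs. For the brightest probe the Sox9-deleted RNAs differed (990 by genotype and 756 by treatment) and the Sox9-expressing RNAs were level. For the 3′ probe the Sox9-deleted RNAs were level and the Sox9-expressing RNAs differed (149 in wild-type and 324 in vehicle-treated spheres), also in the raw red signal. Of the 16 tested probes of desmosome genes, 9 were higher on both arrays, 1 lower on both and 6 had opposite signs. Over all tested probes, 34.6% were higher on both and 32.6% lower on both. The remaining probes of the array also had opposite signs, so such signs are common and not particular to desmosome genes.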

How the results depend on the processing

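As reported, 0 of 8 desmosome genes passed an adjusted p of 0.05 in limma and 3 had an unadjusted p under 0.05; the methods' t-test gave 1 gene, Jup, at that limit, and neither Pkp1 nor Dsp. Median centring called 2 and the authors' processed values 1. Over all probes, median centring called 522 (491 higher), the authors' values 68 (50 higher) and no filter 21, against 2 as reported, and median centring put 50.03% of probes higher on both arrays against 34.6%. With median centring the mean log2 ratio turned to 0.22 for Dsg2 and 0.22 for Pkp2. With the mean over all tested probes of a gene it turned to 0.0200 for Dsg2 and -0.0173 for Dsc2. Taking 1 array alone, a value with no test, gave -0.0643 to 0.319 for Dsc2 and -0.174 to 0.0324 for Pkp2. Without scaling between arrays, the difference between the Sox9-deleted RNAs was -0.13 for Dsg2 and -0.48 for Dsg3. The cause of these shifts was not tested. Each ratio pairs the 2 RNAs of an array, and no test within a comparison was possible because each comparison is 1 array. The number of genes higher on both arrays was 7 with median centring and 5 under the other alternatives that use both arrays. Pkp1, Dsp, Pkp3, Dsg3 and Jup kept a positive mean in all 11 settings, but not every setting could change it. Changing the filter, keeping outlier spots and the methods' t-test left the ratios of every gene as they were. No member spot was an outlier. Averaging over probes could not move Pkp1, Pkp3, Dsg3 or Jup, each with a single tested probe. Only the remaining settings, such as background and normalization, bear on these means. Dim probes, such as Dsp at base 5665, are limited by signal over background.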
